A study of Mus musculus with 72 samples.

Results

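Junctions formed by a single Cas9 break on chromosome 12 were compared between cells treated with aphidicolin (Aph) and cells treated with aphidicolin plus ART558 (Aph + ART558), an inhibitor of DNA polymerase theta (Pol θ). The libraries were chosen by their labels, as those of the inhibitor collection with the chromosome 12 bait, which gave 2 Aph and 3 Aph + ART558 libraries out of 60 LAM-HTGTS libraries with junction lists in a series of 72 samples. All 5 came from the parental line Nxp010, neural progenitor cells derived from embryonic stem cells of the genotype NestinCre+ Xrcc4-/-p53-/-, so that both groups lack the end-joining factor Xrcc4 and p53 and the results describe 1 line. Cells received a Cas9 and guide RNA plasmid by nucleofection and were then kept in 0.5 µM aphidicolin for 72 h and 0.25 µM for 24 h, without or with ART558 at 5 µM for 72 h and 2.5 µM for 24 h. The treatment label of the second group spells the inhibitor ATR558, whereas its titles have ART558. The cell type and genotype could not be checked in junction lists, which hold no expression values.

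Double-strand breaks are mostly sealed by classical non-homologous end joining, in which Xrcc4 works with DNA ligase IV. In cells without it, ends are joined by alternative routes, and the best known of these is theta-mediated end joining, in which Pol θ anneals short stretches of matching sequence (micro-homology) in the single-stranded tails of both ends and copies from them. Pol θ is also known for short insertions copied from sequence beside the break. Aphidicolin slows the replicative polymerases, and breaks then accumulate in long, transcribed genes known as recurrent DNA-break clusters (RDCs).

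In LAM-HTGTS, a primer beside the Cas9 cut is extended across it, and each read shows where the bait end stops and to which genomic end, the prey, it was joined. The guide lies on the plus strand of mm10 (GRCm38) at chr12:12994038-12994057 and is followed by the PAM AGG. The cut lies between positions 12994054 and 12994055, within an exon of Gm35208, a lincRNA gene, and the exon spans chr12:12993828-12994199, and Mycn, 52140 bp away, is the nearest protein-coding gene. The sequences of the break site, read from the RefSeq GRCm38 genome, are shown because every micro-homology, bait end and copied insertion reported for this break is made of them. In the guide, capitals mark the 3 bases on each side of the cut, in the bait they mark the nested primer, and in the sequence past the cut they mark the PAM.
guide, chr12:12994038-12994057, plus strand: attccgccaaccctCGAGAT
bait, chr12:12993923-12994054, plus strand: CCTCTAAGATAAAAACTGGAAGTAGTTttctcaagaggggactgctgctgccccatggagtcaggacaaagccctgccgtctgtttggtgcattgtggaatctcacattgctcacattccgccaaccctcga
past the cut, chr12:12994055-12994134, plus strand: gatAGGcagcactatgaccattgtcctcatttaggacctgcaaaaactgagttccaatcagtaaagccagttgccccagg

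The 2 Aph libraries held 14978 and 15135 junctions on placed chromosomes, and the 3 Aph + ART558 libraries held 7588, 6816 and 12837, or 57354 in all. A share of 50% in these libraries has a 95% Wilson interval of ± 0.796 to ± 1.19 percentage points, which covers counting error only, since reads that carry no molecular identifier may repeat a molecule. First occurrences of a bait end, prey position and strand made up 77.3% to 89.8% of a library. The number of reads behind each library and of cells at harvest is not given in the sources used here, so every value is a share of recovered junctions, and a share can rise while the number of joins falls. By the read names, both Aph libraries lie on sequencing run 1 and all 3 Aph + ART558 libraries on run 2, so treatment and run cannot be told apart in this comparison. Comparisons within a run are therefore given beside it, ART558 against DMSO at the same break (3 and 2 libraries, run 1) and Aph + ART558 against Aph at a chromosome 6 break (3 and 1 libraries, run 2).

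Across 65 junction features (classes, micro-homology lengths, insertions, bait-end loss and prey chromosomes), limma called 24 at an adjusted p under 0.05, or 36.9%, of which 11 were higher and 13 lower in Aph + ART558. The libraries of the groups did not overlap in 42 of 65 features (64.6%). For single values, 3 libraries against 2 allow a two-sided exact permutation p of no less than 0.2, which was the value for every difference without overlap. The labels number the replicates without saying that they were separate cultures. The study's figure legends speak of independent biological replicates, but its reporting summary speaks of technical repeats for these cells and baits, so the p-values measure only the spread between these libraries, which may be technical.

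Joins of the bait to prey near the break took up a smaller share with the inhibitor. In the Aph libraries, 56.5% and 54.6% of junctions had their prey within 1 Mb of the cut, against 27.4%, 32.0% and 37.5% in the Aph + ART558 libraries. Of the 8 junction classes tested, 5 passed, and 4 of these were lower with the inhibitor. In deletions, the bait was joined in its own direction to sequence past the cut. Deletions and inversions are sized by the distance of the prey past the cut. Bases lost from the bait are not counted in it, unless deleted bases are named. Deletions of 200 bp to 10 kb made up 24.0% and 21.8% of junctions in the Aph libraries and 1.73%, 2.13% and 2.92% in the Aph + ART558 libraries. The groups were far apart, with means of 22.9% ± 1.57 (SD, n = 2) and 2.26% ± 0.608 (n = 3), and the log2 fold change was -3.31 ± 0.21 (SE, limma adjusted p = 9.67e-05).

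Inversions, in which the prey past the cut is read in the opposite direction, fell by a similar factor. Within 10 kb they made up 3.71% and 4.24% of the Aph libraries and 0.264%, 0.381% and 0.257% of the Aph + ART558 libraries, the last 3 resting on 20, 26 and 33 junctions (log2 fold change -3.36 ± 0.15, limma adjusted p = 2.26e-05). Longer deletions of 10 kb to 1 Mb fell from a mean of 1.31% to 0.452% (log2 -1.38, limma adjusted p = 0.0041), with no overlap between the groups. Inversions of 10 kb to 1 Mb lay below the minimum for the test, at means of 0.455% and 0.0883%.

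Deletions under 200 bp changed far less. They stood at 8.92% and 9.18% in Aph and at 6.09%, 7.41% and 6.62% in Aph + ART558 (log2 -0.43, limma adjusted p = 0.0183). Taken as a share of the junctions within 1 Mb instead of all junctions, they were 16.3% in Aph and 21% in Aph + ART558, so that the direction turned (log2 0.35, limma adjusted p = 0.0794). The call was also lost without Aph replicate 1 (limma adjusted p = 0.0766), Aph replicate 2 (0.109) or Aph + ART558 replicate 3 (0.0558).

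Joins to other chromosomes, the translocations of this assay, took up a larger share with the inhibitor. They made up 39.0% and 40.6% of the Aph libraries and 67.7%, 64.5% and 58.0% of the Aph + ART558 libraries (log2 0.67 ± 0.09, limma adjusted p = 0.00315). Since all classes sum to the library, a higher share here is tied to the lower share of deletions and inversions.

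The classes on the bait side of the cut, where the prey lies on the side of the primer, did not pass the test. Inverted joins there were 14.7% and 14.6% in Aph and 15.9%, 18.8% and 24.4% in Aph + ART558 (limma adjusted p = 0.131). Their direction depended on the total, with a log2 fold change of 1.19 as a share of the junctions within 1 Mb and -0.27 as a ratio to the junctions on other chromosomes. Bait-side joins in the bait's own direction had means of 3.20% and 2.81% and turned to 0.59 (log2) as a share of the junctions within 1 Mb. Joins to chromosome 12 beyond 1 Mb had means of 4.67% and 4.27%.

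The 2 within-run comparisons gave the same direction for the long deletions and the inversions. Between DMSO and ART558, where limma called 34 of the 65 features (52.3%), the mean share of deletions of 200 bp to 10 kb was 46.5% and 11.2%, that of inversions within 10 kb 7.50% and 0.170%, and that of other chromosomes 16.8% and 51.4%. At the chromosome 6 break, deletions of 200 bp to 10 kb made up 17.1% of the Aph library and 6.85%, 7.07% and 4.97% of the Aph + ART558 libraries, and inversions within 10 kb 2.61% against 0.485%, 0.322% and 0.395%. Deletions of 10 kb to 1 Mb lay closer there, at 1.37% against 1.16%, 1.27% and 0.921%. Other chromosomes made up 40.3% against 46.9%, 46.0% and 58.1%. Deletions under 200 bp went the other way in both comparisons, with means of 12.9% in DMSO and 17.2% in ART558, and 8.82% against 13.1%, 12.4% and 12.2% at chromosome 6. Of the 65 features, 18 (27.7%) differed by limma in the size of the ART558 effect between cells with and without aphidicolin, among them inversions within 10 kb and deletions of 200 bp to 10 kb.

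**Figure D1:**
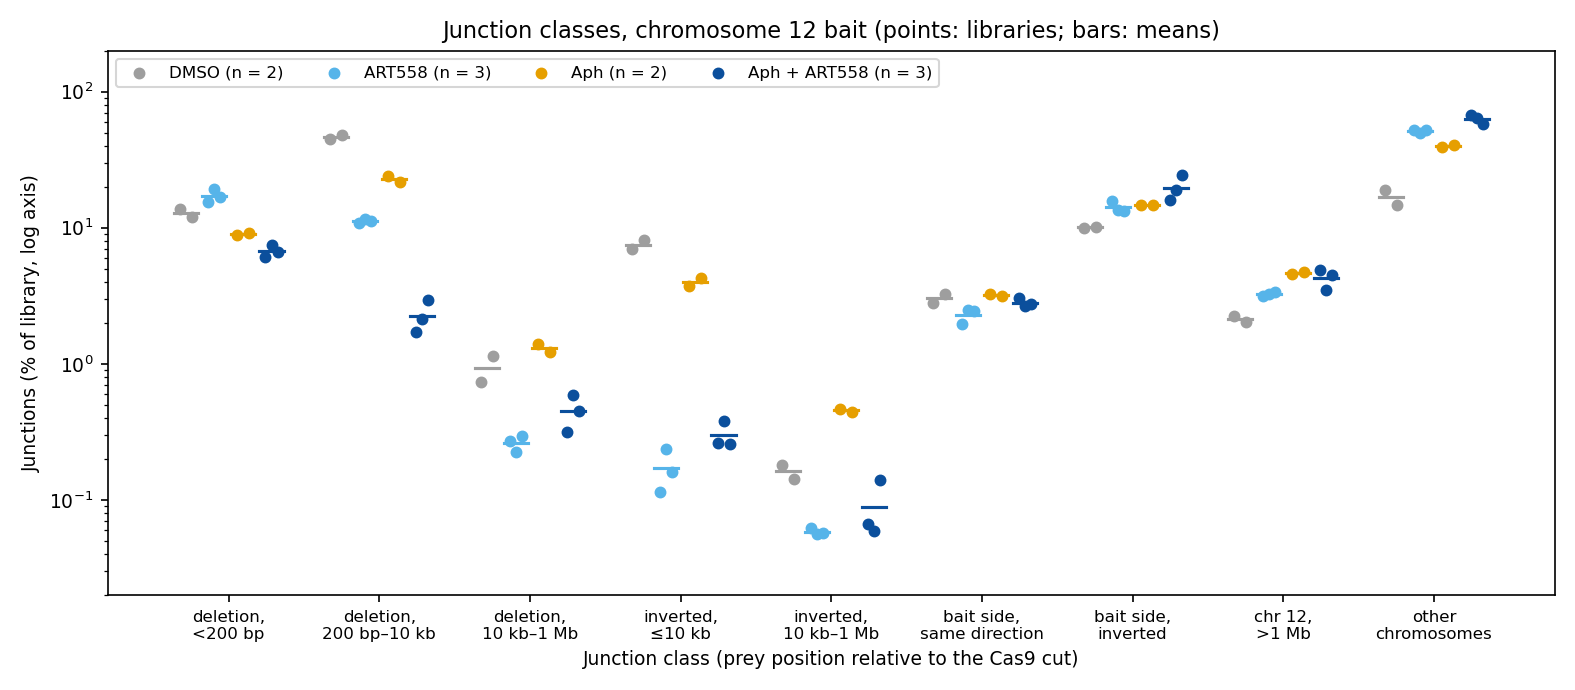
Share of each junction class in the libraries with the chromosome 12 bait, as percent of a library's junctions on a log axis, with 1 point per library and a bar at each group mean. Deletions of 200 bp to 10 kb lie at 21.8% and 24.0% in the Aph libraries and at 1.73% to 2.92% in the Aph + ART558 libraries, and the DMSO and ART558 libraries are drawn beside them.

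The distance of the prey from the cut shows which deletions were fewer. The median distance of deletion-oriented prey within 1 Mb was 930 and 870.5 bp in the Aph libraries and 37, 40 and 48 bp in the Aph + ART558 libraries. Features of this and the following finer divisions were added after seeing the data and fitted together with the 65 others, which gave 58 calls among 119 features (48.7%). Between 1 and 100 bp, no division of distance passed in that fit. Deletions with the prey 1 to 25 bp past the cut had means of 3.73% and 3.21%. Those with the prey 26 to 50 bp past it were 1.19% and 1.43% in Aph against 1.57%, 2.27% and 1.91% in Aph + ART558 (limma adjusted p = 0.0542).

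From 101 bp on, each division up to 100 kb was lower with the inhibitor. Deletions of 101 to 200 bp were 2.46% and 2.49% in Aph and 0.474%, 0.381% and 0.389% in Aph + ART558 (log2 -2.33, limma adjusted p = 2.8e-05), and those of 201 to 500 bp had means of 3.79% and 0.238% (log2 -3.54, limma adjusted p = 3.55e-05). The division that held most deletions in Aph, 2 to 5 kb, had means of 7.03% and 0.826%. The divisions differ in width, so this is no peak per base. Beyond 10 kb the difference was smaller, at 0.96% and 0.361% for 10 to 100 kb (log2 -1.22, limma adjusted p = 0.00637).

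Bait-side inverted joins had a different profile. Their median distance was 2138.5 and 1967 bp in Aph and 2004, 1920 and 2030 bp in Aph + ART558, and hardly any lay at 51 to 200 bp in either group. Those of 501 bp to 1 kb were 1.69% and 1.78% in Aph and 2.28%, 2.57% and 3.02% in Aph + ART558 (limma adjusted p = 0.017), and those of 1 to 2 kb had means of 2.85% and 5.01% (limma adjusted p = 0.0359). Those of 2 to 5 kb and 5 to 10 kb did not pass, with means of 4.38% and 6.34% (limma adjusted p = 0.0853) and 1.31% and 1.85% (0.152). At 1 to 25 bp and 201 to 500 bp the libraries overlapped. These directions too depended on the total. Per 100 junctions on other chromosomes, joins of 501 bp to 1 kb stood at 4.33 and 4.39 in Aph and 3.37, 3.98 and 5.21 in Aph + ART558, which overlap (limma adjusted p = 0.753), and those of 1 to 2 kb also overlapped (0.784). On that total none of the 8 divisions tested was higher by limma, and 3 were lower, at 201 to 500 bp, 10 to 100 kb and 100 kb to 1 Mb.

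**Figure D2:**
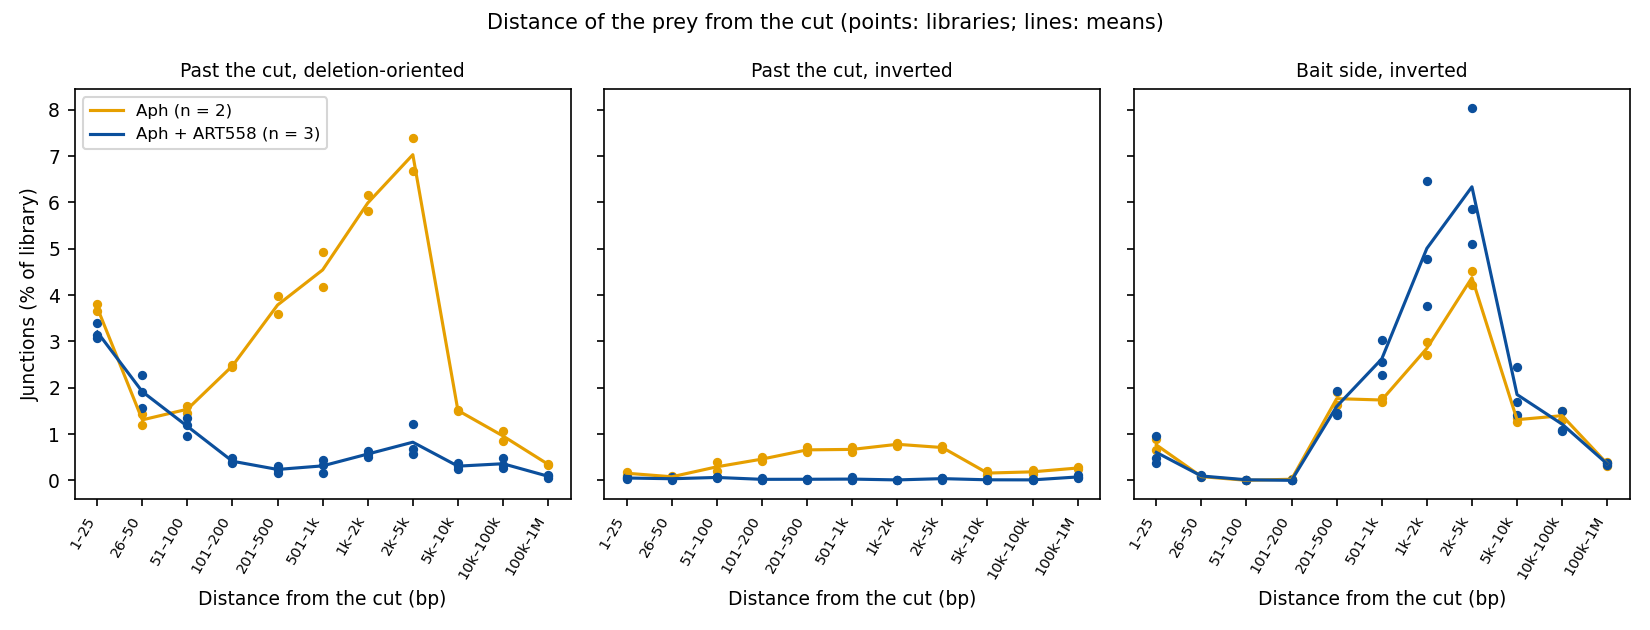
Distance between prey and cut, in bp, for deletions, for inversions past the cut and for inverted joins on the bait side, as percent of a library's junctions, with 1 point per library and a line through each group mean. The divisions differ in width. The one of 2 to 5 kb holds the most Aph deletions, with a mean of 7.03%, where the Aph + ART558 mean is 0.826%. On the bait side it holds the most inverted joins in both groups.

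Recurrent short deletions were seen at both treatments. The 6 most frequent deletion junctions under 200 bp each held a micro-homology of 3 to 6 bp and made up no more than 0.0587% of any of the 5 libraries. In their products, shown because they place the micro-homology between the bait and the sequence past the cut, capitals mark the shared bases. The bases deleted include those lost from the bait.
45 bp deleted, CATTG: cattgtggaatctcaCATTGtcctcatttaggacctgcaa
60 bp deleted, CATTGT: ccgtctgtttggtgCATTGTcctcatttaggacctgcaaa
51 bp deleted, GCA: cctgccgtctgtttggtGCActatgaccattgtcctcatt
69 bp deleted, CATT: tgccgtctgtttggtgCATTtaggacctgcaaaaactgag
48 bp deleted, GCA: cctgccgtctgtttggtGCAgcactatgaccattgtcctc
30 bp deleted, CCTC: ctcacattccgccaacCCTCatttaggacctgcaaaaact
The CATTG product joins position 12994032 to 12994073 and was read 5 and 5 times in Aph and 3, 4 and 5 times in Aph + ART558, with mean shares of 0.0332% and 0.0457%. The product with CCTC keeps all but 2 bases of the bait and had mean shares of 0.0266% and 0.0264%. With 1 to 7 junctions per library, no difference between the treatments was detectable for these products at this depth.

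At distant junctions, micro-homology was shorter on average with the inhibitor and direct joins were more frequent. Over junctions more than 1 Mb from the break or on another chromosome with 0 to 10 bp of micro-homology, direct joins without any shared base made up 28.1% and 28.7% in the Aph libraries and 35.5%, 33.5% and 36.1% in the Aph + ART558 libraries. Junctions with an insertion are left out of this total, and of the total of each share of direct joins or of a micro-homology length unless all junctions are named. The groups did not overlap, with means of 28.4% ± 0.46 (n = 2) and 35.1% ± 1.36 (n = 3), and the difference passed in the fit (log2 0.30 ± 0.08, limma adjusted p = 0.0231). The call did not hold without Aph replicate 1 (limma adjusted p = 0.115), Aph replicate 2 (0.105), Aph + ART558 replicate 1 (0.0589) or Aph + ART558 replicate 3 (0.0993), while the difference stayed between 6.09 and 7.40 percentage points. With the replicate number as a block, in a fit that also left out Aph + ART558 replicate 3, the limma adjusted p was 0.205. Of all distant junctions, insertions included, direct joins made up means of 24.2% and 29.1% (limma adjusted p = 0.0332).

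Of the 11 lengths tested at these distant junctions, 5 passed. Junctions with 2 bp were 19.05% and 18.1% in Aph and 14.2%, 15.05% and 14.8% in Aph + ART558 (limma adjusted p = 0.0166), and those with 3 bp fell from a mean of 13.8% to 10.6% (0.0128) and with 4 bp from 7.93% to 6.15% (0.0181). At the other end, junctions with 10 bp rose from 1.16% to 1.59% (limma adjusted p = 0.0425), and those with 1 bp or 5 to 9 bp did not pass. The mean length was 2.21 and 2.19 bp in Aph and 2.07, 2.02 and 2.02 bp in Aph + ART558, without overlap. Among distant junctions that had lost 30 to 99 bp of the bait end it overlapped, at 2.12 and 2.10 bp against 2.11, 2.07 and 2.04 bp. Among those that had lost 0 to 29 bp it did not, at 2.51 and 2.46 bp against 1.99, 1.86 and 1.99 bp. Over distant and near junctions together, 9 lengths passed, against 3 without Aph replicate 1, 0 without Aph replicate 2 and 3 without Aph + ART558 replicate 3.

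Within 1 Mb of the break, direct joins were rarer in both groups. They made up 9.88% and 9.09% of the junctions without an insertion in Aph and 19.6%, 14.3% and 15.8% in Aph + ART558 (log2 0.79 ± 0.14, limma adjusted p = 0.00843). Insertions were themselves more frequent there with the inhibitor, and of all junctions within 1 Mb direct joins made up 8.23% and 7.44% in Aph and 12.01%, 8.93% and 9.49% in Aph + ART558, a smaller difference that did not pass (log2 0.36 ± 0.14, limma adjusted p = 0.094). Junctions with 2 bp, the most frequent length here, fell from a mean of 33.1% to 24.5% (limma adjusted p = 0.012), and those with 3 bp from 20.9% to 16.9% (0.024), whereas those with 9 bp rose from 0.382% to 0.661% (0.0166). Junctions with 5, 6 and 7 bp were also at higher shares without overlap but did not pass, with means of 4.68% and 5.70% (limma adjusted p = 0.053), 2.16% and 3.12% (0.0833) and 1.304% and 1.95% (0.106). The mean length near the break overlapped, at 2.41 and 2.44 bp in Aph and 2.297, 2.43 and 2.33 bp in Aph + ART558. Of all junctions within 1 Mb, those with 2 bp fell from a mean of 27.3% to 15.04% (limma adjusted p = 0.000511) and those with 3 bp from 17.2% to 10.4% (0.000511).

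Within classes, 2 to 3 bp was the most frequent range among bait-side inverted joins, with means of 57.5% in Aph and 45.8% in Aph + ART558 (limma adjusted p = 0.0171). Direct joins on the bait side in the bait's own direction rose from 23.7% to 39.8% (limma adjusted p = 0.00499), among bait-side inverted joins from 6.84% to 12.3% (0.0142) and among deletions of 200 bp to 10 kb from 7.88% to 14.02% (0.0447). Among deletions under 200 bp neither passed, with direct joins at means of 14.2% and 17% (limma adjusted p = 0.17), where the libraries overlapped, and joins through 2 to 3 bp at 49.9% and 41.6% (0.0724). Of all junctions of a class, direct joins passed among bait-side joins in the bait's direction, with means of 19.8% and 32.9% (limma adjusted p = 0.00511), but the libraries overlapped among bait-side inverted joins, at 5.63% and 7.23% (0.147), deletions of 200 bp to 10 kb, at 6.63% and 9.41% (0.191), and deletions under 200 bp, at 11.1% and 9.75% (0.294).

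The dinucleotides behind the 2 bp joins near the break can be read from the bait sequence. Joins at position 12994044 through GC made up 2.51% and 2.04% of the junctions within 1 Mb in Aph and 0.913%, 0.870% and 0.727% in Aph + ART558. Joins through CC at position 12994042 had means of 1.42% and 0.321%, and those through CT at position 12994051, 3 bp from the cut, 1.59% and 0.587%. All 6 of the most frequent combinations of bait end and micro-homology over the 5 libraries lay 2 to 12 bp from the cut. They rank high partly through the Aph libraries, and no share over all combinations was taken beside them. These combinations were singled out after their values were seen and were not tested.

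In the within-run comparisons, direct joins at distant junctions rose from a mean of 23.8% in DMSO to 37.3% in ART558 and from 20.7% in the Aph library to 30.4%, 32.0% and 29% at the chromosome 6 break. Near the break they were 14.3% and 15.6% in DMSO and ART558 (limma adjusted p = 0.384), and 10.2% against 15.2%, 17.3% and 18.8% at chromosome 6.

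The extent to which the bait end was lost before joining also differed. Bait-end loss is the number of bases between the cut and the last bait base at the junction, and the deposited lists hold losses from -10 to 95 bp for this bait, so that longer losses were not recorded. At junctions more than 1 Mb from the break, the mean loss was 47.5 and 47.1 bp in Aph and 54.8, 52.8 and 54.4 bp in Aph + ART558, a difference of 6.70 bp. Bait ends within 5 bp of the cut made up 7.87% and 8.02% in Aph and 2.98%, 3.60% and 3.13% in Aph + ART558 (log2 -1.27 ± 0.10, limma adjusted p = 0.000272). Near-intact ends were thus recovered less often in all 3 inhibitor libraries.

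Of 11 bins of 10 bp, 3 were lower and 4 higher. A loss of 0 to 9 bp fell from a mean of 11.6% to 4.00% (log2 -1.52, limma adjusted p = 0.000301), one of 10 to 19 bp from 8.69% to 3.68% (0.000845) and one of 20 to 29 bp from 8.24% to 6.88% (0.0317). A loss of 40 to 49 bp rose from 15.4% to 20.6% (limma adjusted p = 0.012), one of 50 to 59 bp from 6.53% to 8.77% (0.0181), one of 60 to 69 bp from 13.3% to 17.7% (0.00834) and one of 70 to 79 bp from 9.39% to 13.4% (0.00383). At 80 to 89 bp the means were 6.78% and 7.91%, and at 90 to 99 bp 11.1% and 8.99%, neither of which passed. Of these 7 bins, 4 passed in the fit without Aph replicate 1 and 3 in the fit without Aph replicate 2.

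Within the loss profile, bait ends recurred at the same bases in both groups. The 5 most frequent ends and the 3 most frequent within 19 bp of the cut are shown, since they mark the last bait base at the junction. Capitals show the bait up to that base, and lower case the genomic sequence that follows. Micro-homology shared with the prey is counted to the bait.
43 bp lost, ending at 12994011: TGCCGTCTGTTTGGTgcattgtggaatctc
60 bp lost, ending at 12993994: GAGTCAGGACAAAGCcctgccgtctgtttg
93 bp lost, ending at 12993961: GTTTTCTCAAGAGGGgactgctgctgcccc
70 bp lost, ending at 12993984: CTGCCCCATGGAGTCaggacaaagccctgc
45 bp lost, ending at 12994009: CCTGCCGTCTGTTTGgtgcattgtggaatc
2 bp lost, ending at 12994052: ATTCCGCCAACCCTCgagataggcagcact
3 bp lost, ending at 12994051: CATTCCGCCAACCCTcgagataggcagcac
7 bp lost, ending at 12994047: CTCACATTCCGCCAAccctcgagataggca
The end 43 bp from the cut took up 5.14% and 5.27% of the distant junctions in Aph and 7.70%, 7.62% and 6.38% in Aph + ART558. The end 93 bp from the cut went the other way, with means of 5.54% and 3.97%. The end 2 bp from the cut made up 2.02% and 2.18% in Aph and 0.454%, 0.518% and 0.611% in Aph + ART558.

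The distant and near-cut ends were joined in different ways. Of the junctions without an insertion at the 5 most frequent ends, 47.9% to 70.4% were direct over the 5 libraries together, whereas at the 3 ends near the cut 6.47% to 13.8% were, most of these junctions coming from Aph. Of all junctions at these ends, 43.3% to 61.3% and 4.55% to 10.53% were direct. At the end 2 bp from the cut, direct joins made up 7.84% and 12.6% in Aph and 21.1%, 22.2% and 29.03% in Aph + ART558, and at the end 7 bp from the cut 2.70% and 3.23% against 26.7%, 29.6% and 12.2%, with 15 to 41 such junctions per Aph + ART558 library at these 2 ends. At the end 43 bp from the cut, direct joins made up 56.5% and 58.6% in Aph and 58.6%, 50.8% and 55.1% in Aph + ART558, so the groups overlapped. Distinct preys made up 85.8% to 88.7% of the junctions at these 8 ends.

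Since the groups differed in bait-end loss, direct joining was compared at like losses. At a loss of 0 to 9 bp, direct joins made up 10.6% and 12.4% of distant junctions without an insertion in Aph and 35.6%, 39.6% and 40.6% in Aph + ART558 (log2 1.74 ± 0.11, limma adjusted p = 8.62e-05). Of all distant junctions at this loss they made up 8.72% and 9.58% against 25.7%, 30.2% and 30.4%, which also passed (limma adjusted p = 8.58e-05). At 10 to 19 bp they were 11.04% and 10.8% against 26.8%, 24.5% and 22.1% (limma adjusted p = 0.000406), and they also rose at 20 to 29 bp and at 30 to 39 bp. In junctions that keep up to 10 bp past the cut, a loss of -10 to -1 bp, direct joins overlapped, at 38.7% and 32.9% in Aph and 35.7%, 30.2% and 40.5% in Aph + ART558. The 6 bins from 40 bp on did not pass, with means of 45.6% and 47.0% at 40 to 49 bp and 28.1% and 29.3% at 60 to 69 bp.

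Over losses of 0 to 29 bp together, direct joins made up 14.3% and 15.6% in Aph and 33.2%, 30.8% and 31.6% in Aph + ART558. Over 30 to 99 bp they made up 33.3% and 33.97% against 35.9%, 34.2% and 36.8%, so that short and long losses lay far apart in Aph and close together in Aph + ART558. With each library weighted to the same distribution of bait-end loss, direct joins were 29.9% and 30.2% in Aph and 35.1%, 33.9% and 36.1% in Aph + ART558, a difference of 4.96 points against 6.63 without the weighting. Between DMSO and ART558, direct joins at 0 to 29 bp were 12.6% and 28.8% and at 30 to 99 bp 31.6% and 38.8%.

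**Figure D3:**
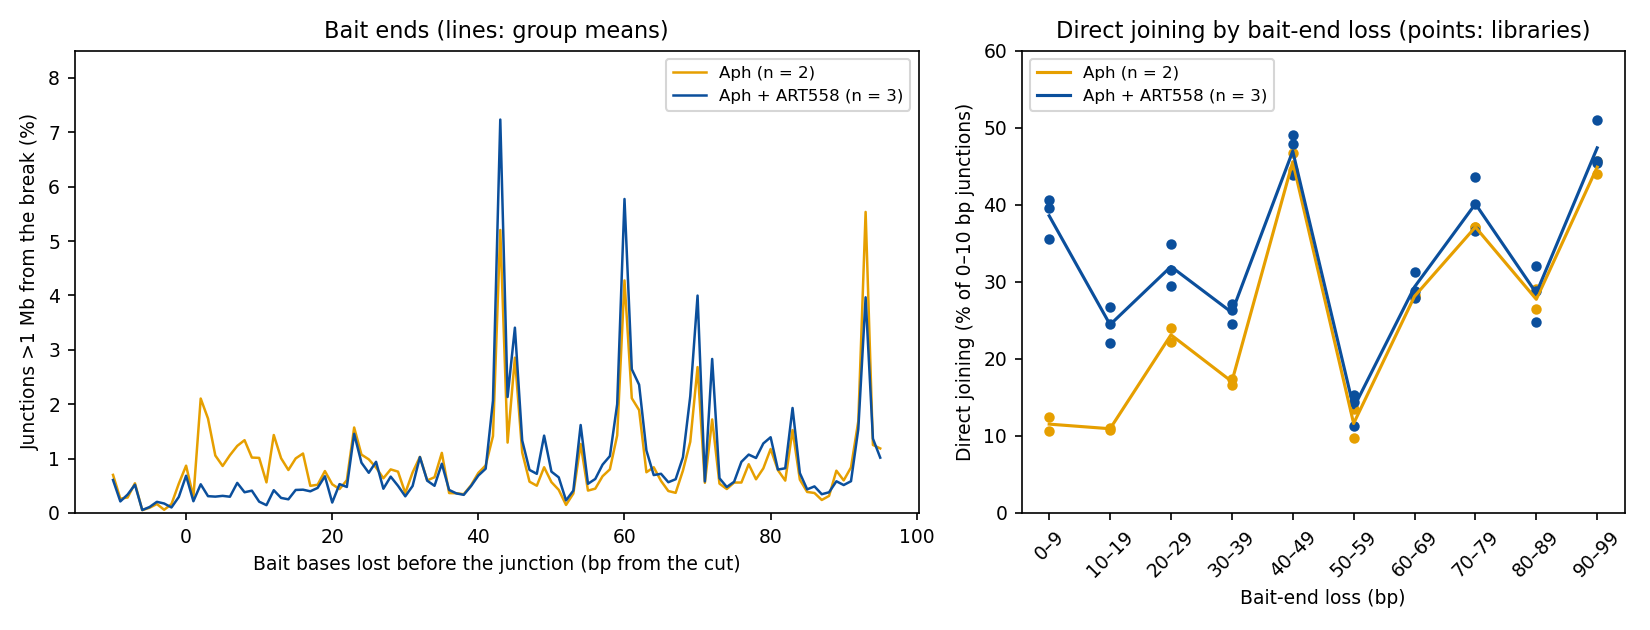
Left, percent of distant junctions (y axis) by the number of bait bases lost (x axis, bp), with a line for each group mean; right, direct joins as percent of distant junctions with 0 to 10 bp of micro-homology, by bins of 10 bp of bait-end loss, with 1 point per library and lines through the group means. Both groups peak at the same losses, among them 43 bp with means of 5.20% and 7.23%, and direct joining is apart at losses of 0 to 39 bp.

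The other breaks showed the shift in loss to different extents. The mean loss was 41.3 bp in DMSO and 56.05 bp in ART558 at the chromosome 12 break. At chromosome 6 it was 18.0 bp in the Aph library and 20.4, 21.9 and 20.8 bp in the Aph + ART558 libraries, and ends within 5 bp made up 30.1% against 33.1%, 30.01% and 32.3%, so that the fall in near-intact ends was not seen there. At a chromosome 8 break, ends within 5 bp had means of 19.5% in 3 Aph libraries and 6.86% in the 2 Aph + ART558 libraries that held over 1000 junctions, and these groups also lie on separate runs. The third Aph + ART558 library of that break, left out for its 949 junctions, had 15.9%.

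Insertions, bases found between bait and prey that neither supplies by alignment, took up a larger share of the junctions near the break. Of the junctions within 1 Mb, insertions of 1 to 9 bp were in 13.5% and 14.9% in Aph and 26.4%, 24.8% and 26.3% in Aph + ART558 (log2 0.86 ± 0.08, limma adjusted p = 0.000537). Insertions of 10 to 30 bp were in 2.86% and 3.08% in Aph and 12.1%, 12.3% and 13.4% in Aph + ART558 (log2 2.05 ± 0.08, limma adjusted p = 2.26e-05), a ratio of means of 4.24. The junctions within 1 Mb were themselves fewer with the inhibitor, and as a share of all junctions the near insertions of 1 to 9 bp overlapped, at 7.63% and 8.14% in Aph and 7.24%, 7.95% and 9.86% in Aph + ART558 (limma adjusted p = 0.735). Those of 10 to 30 bp were still higher on that total, at 1.62% and 1.68% against 3.32%, 3.95% and 5.02% (limma adjusted p = 0.00231). No insertion over 30 bp is in the lists.

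At distant junctions, all insertions together overlapped between the groups. They made up 9.95% and 11.8% in Aph and 10.97%, 12.1% and 11.5% in Aph + ART558, a difference of 0.63 points that turned to -0.3 without Aph replicate 1 (two-sided exact permutation p = 0.6 with all libraries). Those of 10 to 30 bp did not overlap, at 3.99% and 4.11% in Aph and 4.54%, 5.07% and 5.40% in Aph + ART558, and did not pass the test (limma adjusted p = 0.0544).

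By class, the larger share near the break was found in deletions and in bait-side inverted joins. Among bait-side inverted joins, an insertion was present in 17.4% and 17.8% in Aph and in 41.9%, 39.2% and 41.6% in Aph + ART558 (log2 1.21, limma adjusted p = 0.0001). Among deletions under 200 bp it was present in 19.7% and 23.5% against 40.7%, 41.4% and 44.6% (limma adjusted p = 0.000862), and among those of 200 bp to 10 kb in means of 15.6% and 32.6% (0.00337). Bait-side joins in the bait's direction, with means of 16.1% and 16.7%, and joins to other chromosomes, with 10.9% and 11.4%, did not pass.

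The origin of the inserted bases was traced by matching 10 bases to the 150 bp on each side of the cut. Of the insertions of 10 bp or more within 1 Mb, 87 of 242 and 113 of 255 in Aph held an inverted copy of the break site, or 36.0% and 44.3%. In Aph + ART558 these were 9 of 252, 14 of 269 and 29 of 644, or 3.57%, 5.20% and 4.50% (log2 -3.16 ± 0.18, limma adjusted p = 5.51e-05). As a share of all junctions within 1 Mb, inverted copies were also lower, at 1.03% and 1.37% against 0.432%, 0.641% and 0.602% (limma adjusted p = 0.00876).

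Insertions copied in the same direction or without a match rose. Copies in the direction of the bait rose from means of 9.29% to 15.9% of these insertions (limma adjusted p = 0.0123) and from 0.275% to 2.00% of the junctions within 1 Mb. Matches to the prey's own flank overlapped as a share of these insertions, at 8.26% and 3.53% in Aph and 10.7%, 7.43% and 9.47% in Aph + ART558 (limma adjusted p = 0.152), and rose from 0.173% to 1.16% of the junctions within 1 Mb (0.000812). Insertions without a match made up 45.04% and 44.3% in Aph and 68.3%, 71.4% and 71.7% in Aph + ART558, and 1.29% and 1.37% against 8.26%, 8.80% and 9.59% of the junctions within 1 Mb (log2 2.65, limma adjusted p = 2.06e-05). Searched more widely, 71.3% and 72.1% of the insertions of 14 bp or more in Aph had 14 bases found within 10 kb of the cut, against 21.4%, 17.8% and 19.3% in Aph + ART558.

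The most frequent copies show what was inserted. In these inserted sequences capitals mark the bases that match the break site, and the first 3 are the reverse complement of its plus strand.
inverted copy of chr12:12994021-12994037: GTGAGCAATGTGAGATT
inverted copy of chr12:12994028-12994037: GTGAGCAATG
inverted copy of chr12:12994025-12994037: GTGAGCAATGTGA
copy of chr12:12994032-12994044: GCTCACATTCCGC
copy of chr12:12994033-12994046: CTCACATTCCGCCA
All 3 inverted copies start from the same base, 17 bp before the cut, and differ in length. The longest was inserted at 6 and 3 junctions in the Aph libraries and at none in the Aph + ART558 libraries, and at 9 junctions in DMSO and none in ART558. The 10-base copy was found at 6 junctions in Aph and none in Aph + ART558. For a sequence found at 0 of 1165 insertions in Aph + ART558, a count of 0 allows a share of up to 0.258%. The same-direction copy GCTCACATTCCGC was found at 4 junctions, of Aph + ART558 replicate 2, at none in the other 2 libraries of that group or in Aph, and at 1 junction in DMSO.

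The share of inverted copies was lower with the inhibitor in the other comparisons too. Between DMSO and ART558 the means were 35.7% and 7.33% of insertions of 10 bp or more, and at chromosome 6 the Aph library had 22.4% against 3.90%, 3.57% and 4.10%. Insertions of 10 to 30 bp near the break had means of 4.24% in DMSO and 9.35% in ART558, and those of 1 to 9 bp had 21.6% and 25.7% and did not pass (limma adjusted p = 0.0638).

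**Figure D4:**
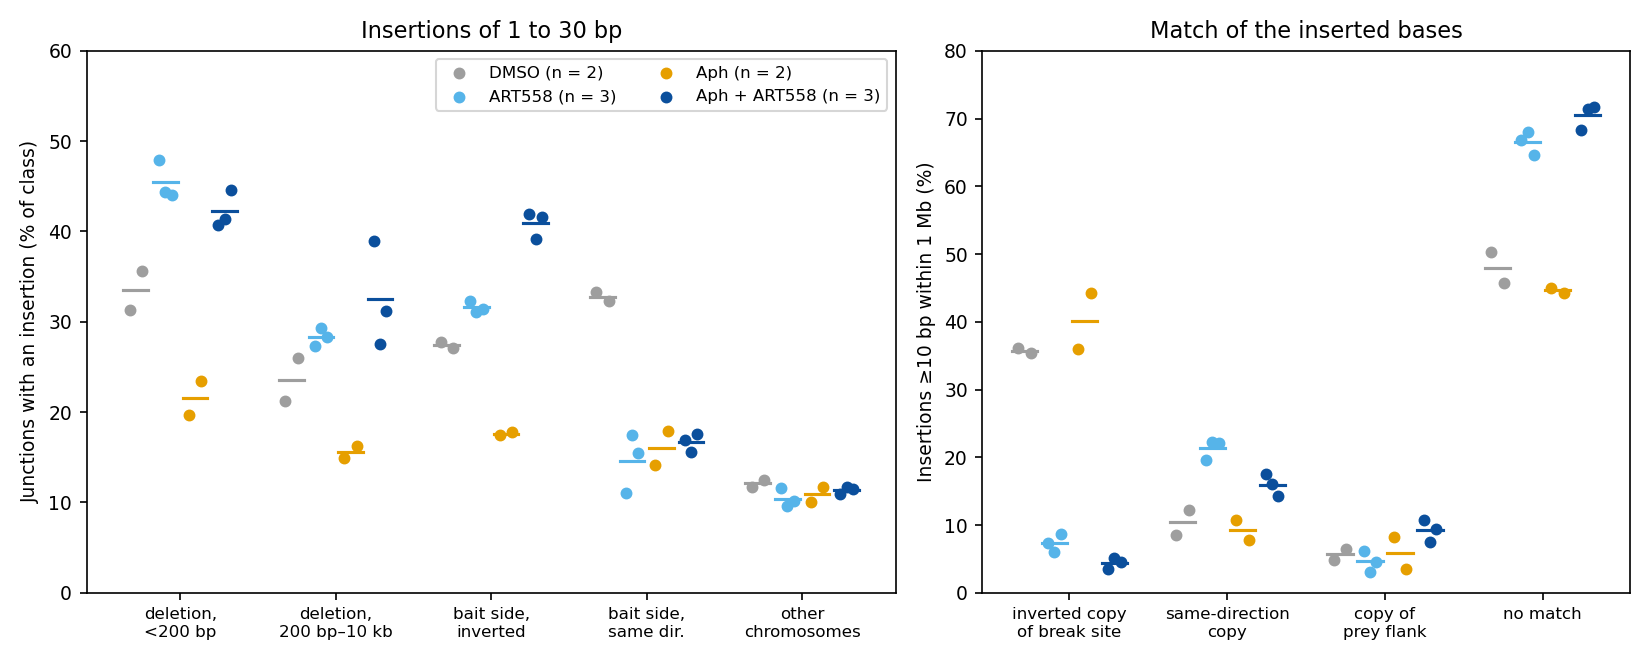
Left, percent of junctions with an insertion of 1 to 30 bp in 5 junction classes; right, percent of the insertions of 10 bp or more within 1 Mb that match the break site, the prey's own flank or nothing, with 1 point per library and a bar at each group mean. Inverted copies lie at 36.0% and 44.3% in Aph and at 3.57% to 5.20% in Aph + ART558.

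On other chromosomes, prey fell less often into RDCs. RDCs are classed by replication timing, those in late constant-timing regions (CTR) replicating together late in S phase and those in timing-transition regions (TTR) lying on the slopes between early and late domains. In windows of 1 Mb around the study's RDC positions, the Aph libraries had 1.07 and 0.926 junctions per 1000 other-chromosome junctions per Mb at 39 CTR RDCs, and the Aph + ART558 libraries 0.609, 0.601 and 0.689. At 64 TTR RDCs the densities were 0.795 and 0.686 against 0.508, 0.416 and 0.525. Both classes were lower without overlap (two-sided exact permutation p = 0.2), and windows outside RDCs stood at means of 0.405 and 0.404. The RDC list is the study's own and is no independent evidence of this direction.

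These densities are relative to the junctions on other chromosomes, whose share of the library was itself higher with the inhibitor. Per 1000 of all junctions, the difference was 0.0028 in CTR RDCs and 0.011 in TTR RDCs, so that no fall was seen on that total. Junctions on other chromosomes as a whole rose on it, from a mean of 39.8% to 63.4%, and RDCs did not rise with them. Windows outside RDCs were not taken on that total. In DMSO and ART558, without aphidicolin, the CTR means were 0.359 and 0.410 and the TTR means 0.466 and 0.494.

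Single RDCs rested on few junctions and were not tested. Their values are per 1000 junctions on other chromosomes, and the total of all junctions was not tried for them. Of the 103 RDC windows, 27 did not overlap between the groups (26.2%), against 474 of 2403 other windows of 1 Mb (19.7%). By direction, 25 RDC windows were lower (24.3%) and 2 higher (1.94%) in Aph + ART558 without overlap, against 8.36% lower and 11.4% higher among the other windows. By their means 31 of 39 CTR RDCs and 47 of 64 TTR RDCs were lower, but the share of the other windows with lower means was not taken. At Auts2, a regulator of neuronal development whose gene spans chr5:131437333-132543344, the window held 3.43 and 3.42 junctions per 1000 in Aph and 0.584, 0.682 and 1.61 in Aph + ART558. At Magi2, a synaptic scaffold protein, there were 2.57 and 2.44 against 0, 1.36 and 1.61, the 0 allowing up to 0.584 per 1000. Nrg3, a ligand of the ErbB4 receptor, held the most RDC junctions and overlapped, with 2.74 and 1.79 in Aph and 2.53, 2.50 and 1.88 in Aph + ART558.

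Among other RDCs with many junctions, Naaladl2 had means of 2.17 and 1.601 and Fhod3, a regulator of actin filaments, 2.17 and 0.689. Csmd1 had means of 1.75 and 0.957, and Sgcd, a sarcoglycan, 1.499 and 0.977. On the total of other-chromosome junctions, the libraries did not overlap in these 4. In Prkg1, a cGMP-dependent kinase, and Ctnna2, a catenin of neuronal adhesion, the means were 1.76 and 0.9996 and 1.82 and 0.819, and the libraries overlapped.

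**Figure D5:**
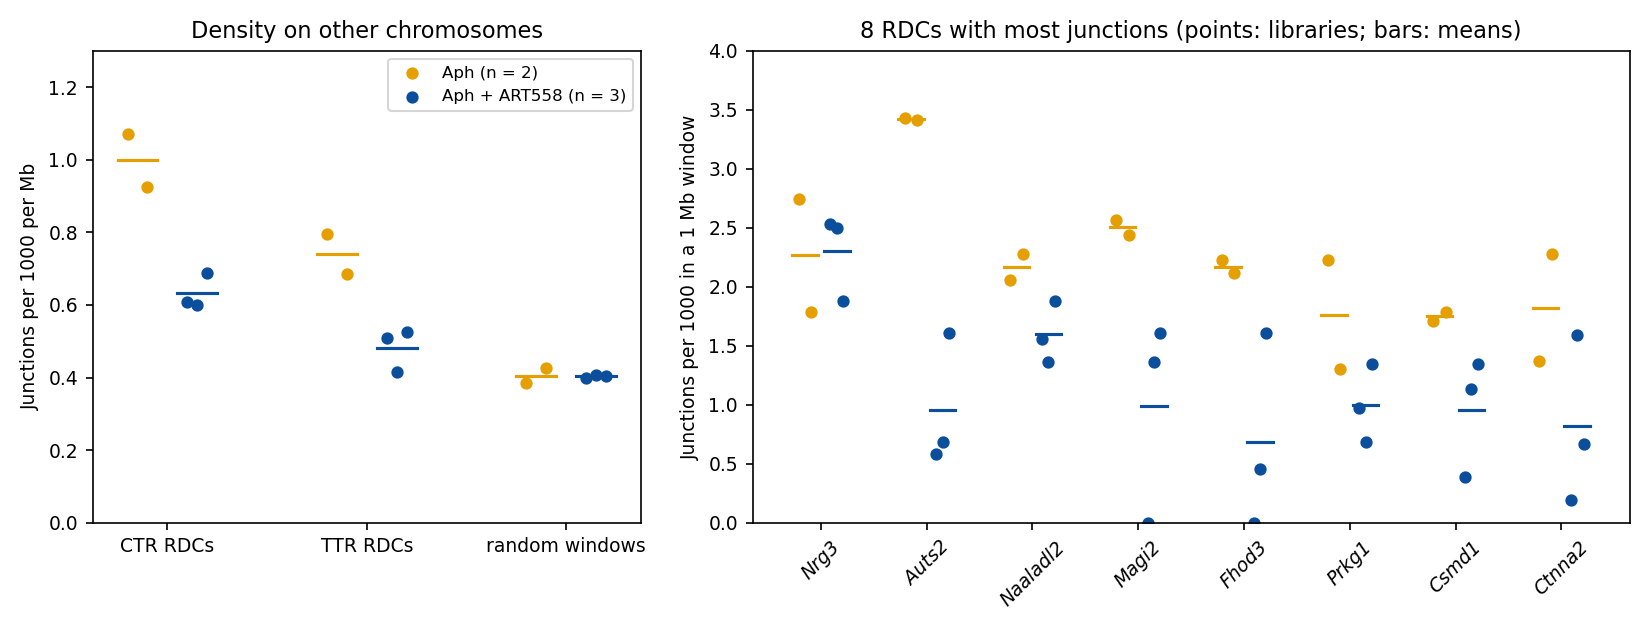
Left, density of other-chromosome junctions per 1000 per Mb at CTR RDCs, TTR RDCs and windows placed at random outside RDCs; right, junctions per 1000 in the 1 Mb windows of the 8 RDCs with most junctions, with 1 point per library and a bar at each mean. CTR density lies at 0.926 and 1.07 in Aph and at 0.601 to 0.689 in Aph + ART558, and Nrg3 is the RDC whose means are nearest.

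The broader location of prey moved with the RDCs. Protein-coding gene bodies, which cover 38.4% of the genome, held 50.5% and 51.9% of other-chromosome junctions in Aph and 47.0%, 47.2% and 47.5% in Aph + ART558. Genes of 500 kb and longer, which cover 7.26%, held 12.5% and 12.1% against 8.94%, 9.76% and 9.71%. In DMSO and ART558 the long genes held 7.87% and 7.53%.

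No chromosome and no region of 10 Mb passed the test. Of 20 prey chromosomes, limma called 0, with 2 at an unadjusted p under 0.05, and of 257 bins of 10 Mb it called 0 (0.0%), with 13 at an unadjusted p under 0.05. Without Aph replicate 1, 2 bins were called, both lower in Aph + ART558, one on chromosome 9 up to 10000000 and one on chromosome 14 from 10000001 to 20000000. Each holds windows of 10 kb in which junctions piled up.

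Several of the genes with most junctions lay in such pile-ups. Of the 10 protein-coding genes with most junctions, Gm10800, Gm21738, Gm10801 and Gm10717 lie in windows of this kind on chromosomes 2, 14 and 9. Gm10800, a gene model of 0.755 kb, held 7.37 and 28.0 junctions per 1000 in Aph and 8.57, 11.8 and 5.91 in Aph + ART558. The 8 windows of 10 kb with at least 20 junctions held 3.20% and 9.97% of other-chromosome junctions in Aph and 3.06%, 3.80% and 2.23% in Aph + ART558, so that Aph replicate 2 stood apart. The other 6 genes were Gm20388, Fgfr2, Nrg3, Naaladl2, Auts2 and Magi2, and Fgfr2, a fibroblast growth factor receptor, had means of 2.36 and 2.08 junctions per 1000. The gene models of Gm20388 and Fgfr2 are long, at 4434.88 and 2960.9 kb. Per Mb, the means in Aph and Aph + ART558 were 0.542 and 0.654 at Gm20388 and 0.797 and 0.701 at Fgfr2. At Nrg3 they were 2.05 and 2.13, and at Auts2 3.24 and 0.936.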

How the data were processed

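LAM-HTGTS junction lists of genomic DNA were analysed. The authors demultiplexed and trimmed reads with TranslocProcess, aligned them to mm10 with Bowtie2 and filtered junctions with TranslocWrapper (versions not given in the sources used here). The deposited lists give, per library and without normalization, each junction's genomic position and strand and the read positions of bait and prey, a unit other than counts, so junctions were counted here.

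The members, lists and tests were chosen with earlier results of these data known. Micro-homology was the overlap of bait and prey in the read, and junctions with an insertion or an overlap over 10 bp were left out of the total for micro-homology and direct joins, and all junctions were tried as the total. Junctions off chromosomes 1 to 19, X and Y (0.21% to 0.917%) were left out, and repeated positions were kept. Shares were fitted as log2(percent + 0.1) over features of at least 0.5% (limma 3.58.1, R 4.3.3, Benjamini-Hochberg over the 65), and bins of 10 Mb with a mean of at least 5 junctions as log2(junctions per 1000 + 0.5), and log2 fold changes are on these scales. Single values were compared by exact permutation (SciPy 1.17.1, Python 3.11.15). Genes came from GENCODE M21, and sequences from RefSeq GRCm38.p6. RDC positions were taken from the study's list, without chromosome 12, and set beside 1500 windows placed at random outside RDCs. Named were the 10 RDCs and 10 genes with most junctions, the 6 most frequent short deletions and features that passed, and 1 of these RDCs is not reported here. The fit was tested on simulated data. Each library was left out in turn, and other totals, pseudocounts, minimums, windows, bins and single counting of positions were tried. A replicate block was tried without Aph + ART558 replicate 3. 1 chromosome 8 Aph + ART558 library of 949 junctions was left out of group values.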

Additional observations from a re-analysis of the deposited data

Results flagged for a closer look

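The effect of ART558 was compared between cells with and without aphidicolin, as the difference of the log2 fold changes of Aph + ART558 against Aph and of ART558 against DMSO in a fit of 10 libraries, which was added after seeing the data. By limma, 18 of 65 features differed (27.7%), and since the Aph + ART558 libraries alone lie on run 2, this difference and the run cannot be told apart.

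Among classes, the difference was 1.48 for inversions within 10 kb (means of 7.50% in DMSO, 0.170% in ART558, 3.97% in Aph and 0.301% in Aph + ART558, limma adjusted p = 0.00321) and -1.28 for deletions of 200 bp to 10 kb (46.5%, 11.2%, 22.9% and 2.26%, 0.00339). It was -0.95 for other chromosomes, -0.85 for deletions under 200 bp, which were higher with ART558 than with DMSO and lower with Aph + ART558 than with Aph, and -0.73 for chromosome 12 beyond 1 Mb. For insertions within 1 Mb it was 0.92 at 10 to 30 bp (4.24%, 9.35%, 2.97% and 12.6%, limma adjusted p = 0.0014) and 0.6 at 1 to 9 bp. For bait ends it was 1.01 within 5 bp of the cut, 0.67 at a loss of 0 to 9 bp and -1.21 at 90 to 99 bp, where the means were 8.91% in DMSO, 16.8% in ART558, 11.1% in Aph and 8.99% in Aph + ART558.

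Among micro-homology lengths within 1 Mb, it was 0.65 for direct joins, 0.39 at 1 bp, -0.48 at 4 bp and -0.63 at 5 bp. At distant junctions it was 0.34 at 3 bp, 0.42 at 4 bp, 0.73 at 7 bp and 0.87 at 10 bp. The limma adjusted p of the 18 ranged from 0.0014 to 0.0476.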

How the results depend on the processing

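Of 310 values under alternative settings, 272 kept their direction and side of the threshold or moved within the limit for their kind. Direct joining at distant junctions differed by 6.09 to 7.40 points with 1 library left out. The fit with the replicate block also left out Aph + ART558 replicate 3, and there the difference was 6.09 and the call was lost. The replicates share only a number. That fit called 5 classes, 7 micro-homology lengths (9 in the main fit), 6 loss bins (7), 0 chromosomes and 0 bins of 10 Mb. With 1 library left out, the calls ranged from 0 to 11 for micro-homology lengths, from 3 to 8 for loss bins, from 0 to 1 for chromosomes and from 0 to 2 for bins of 10 Mb, the difference in insertions from -0.300 to 1.56 points and that in windows outside RDCs from -0.0219 to 0.0186. Near junctions alone gave 5 lengths, bins of 5 bp gave 13 losses, and all junctions as the total gave 19 chromosomes, all higher. With that total the RDC differences were 0.0028 (CTR) and 0.011 (TTR), against -0.37 and -0.26. Without the pile-up windows, chosen after seeing the data, windows outside RDCs differed by 0.0066 and distant insertions of 1 to 9 bp by 0.028 (log2), which ranged from -0.24 to 0.12 with 1 library left out. With the junctions within 1 Mb as the total, deletions under 200 bp turned to 0.35 and bait-side joins in the bait's direction to 0.59. Bait-side inverted joins turned to -0.27 as a ratio to other chromosomes, and chromosome 12 beyond 1 Mb ranged from -0.24 to 0.0018, turned without Aph + ART558 replicate 2. The cause was not tested. At 6816 to 15135 junctions per library, single deletion products held too few junctions to compare, and single RDCs were not tested.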

Other observations

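The chromosome 8 library with the fewest junctions, Aph + ART558 replicate 1 with 949, was used in no comparison. It lies on run 2, the other Aph + ART558 libraries of that break on run 4 and the Aph libraries on run 3. First occurrences made up 79.6% of it, against 85.8% and 93.0% in the other Aph + ART558 libraries. It had 9.38% deletions of 200 bp to 10 kb, where the 3 Aph libraries of that break had 35.7%, 35.0% and 36.2% and the other Aph + ART558 libraries 6.49% and 6.30%. It stood apart from them in bait ends within 5 bp of the cut, at 15.9% of its 383 distant junctions, against 20.5%, 19.3% and 18.7% in Aph and 6.61% and 7.12% in the other Aph + ART558 libraries. Its deletions under 200 bp made up 20.5%, against 11.2%, 10.8% and 11.6% and against 9.22% and 8.68%, and its other-chromosome junctions 35.7%, against 17.1%, 18.1% and 18.5% and against 53.6% and 56.3%. Direct joins made up 28.2% of its distant junctions without an insertion, against 16.6%, 16.4% and 15.9% in Aph and 31.0% and 30.7% in the other Aph + ART558 libraries. Its insertions of 10 to 30 bp within 1 Mb made up 12.2%, against 3.21%, 3.25% and 2.83% and against 16.8% and 13.7%.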
